A study of Allium sativum with 42 samples.

Results

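In garlic of the cultivar Ershuizao, 176 of 58219 gene IDs (0.302%) measured by RNA-seq were chosen as sprout-dominant by their group means. A gene was chosen when its mean in sprouts was at least 5 FPKM and at least 2.5 times its mean in each of the 13 other groups. FPKM is fragments per kilobase of gene and per M (mega) mapped fragments, so it is a level per length and can be compared between genes. The chosen genes made up 0.925% of the 19028 genes with a sprout mean of at least 5 FPKM. The set comprised 42 libraries in 14 groups of 3, all from farm-grown plants of 1 cultivar for which no treatment is named. Sprouts, leaves, pseudostems and roots were labelled 212 days old, flowers 217 days and buds 10 days (shoots, by the growth protocol), and bulbs were taken at 8 ages from 192 to 227 days, every 5 days, from before their expansion to its end. The growth protocol differs from the labels for the tissues, since it dates their harvest to the day of the 217-day bulbs. The labels leave unsaid whether the 3 replicates of a group were different plants, so p-values take in just the spread among these libraries, part or all of which may be technical.

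Garlic is grown from cloves. Its leaves arise from a short basal plate, and their sheaths roll into a pseudostem. A plant that bolts raises a flower stalk, the scape, which carries an umbel of small flowers and often of bulbils, while the cloves of the bulb swell as storage organs. The word sprout is used in trade for the scape as well as for young green shoots, and the labels do not say which was meant. Genes whose transcripts concentrate in 1 organ are used as its molecular markers, but a transcript level in a whole organ does not show which cells carry it. In such bulk samples, fewer cells of a type and less RNA per cell cannot be told apart. The table pairs no ID with a gene name, so the roles of these genes, and marker genes that would test the tissue labels, were not looked up, and no sequence was used.

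The FPKM values could be turned back into whole reads, which came to between 5.92 and 35.4 M per library and to between 17.8 and 22.3 M in the sprout libraries. Leaf replicate 1 was the shallowest library. The smallest number of reads behind any sprout value of a chosen gene was 7, and the median over genes of the lowest sprout count was 261.5.

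The values of all 14 groups chose the genes, and the differences between sprout and the other groups are therefore given as a description, with no test. Sprout means ran from 5.02 to 14906 FPKM, with a median of 22.9. Of the 176 genes, 13 averaged at least 1000 FPKM, 46 at least 100 and 35 less than 10. The same number, 13, were among the 100 most abundant genes of the sprout, and the highest of them ranked 2 among all genes there. The ratio of the sprout mean to that of the next-highest group had a median of 3.60, with the quartiles at 2.94 and 5.83. It was at least 5 in 61 genes, at least 10 in 19 and at least 20 in 6. Just inside the limit of 2.5 lay Asa7G00042.1 (277 ± 67.5 FPKM in sprout against 111 ± 2.87 in flower, SD, n = 3 here and below) and Asa4G02567.1 (15.7 ± 14.2 against 6.26 ± 2.18 in flower). Just outside lay Asa6G00407.1 (9.67 ± 3.73 against 3.87 ± 2.02 in 217-day bulbs) and Asa7G04110.1 (126 ± 65.7 against 50.9 in leaf), at ratios of 2.496 and 2.48. Genes on both sides of the limit thus had spreads wider than their distance from it.

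**Figure D1:**
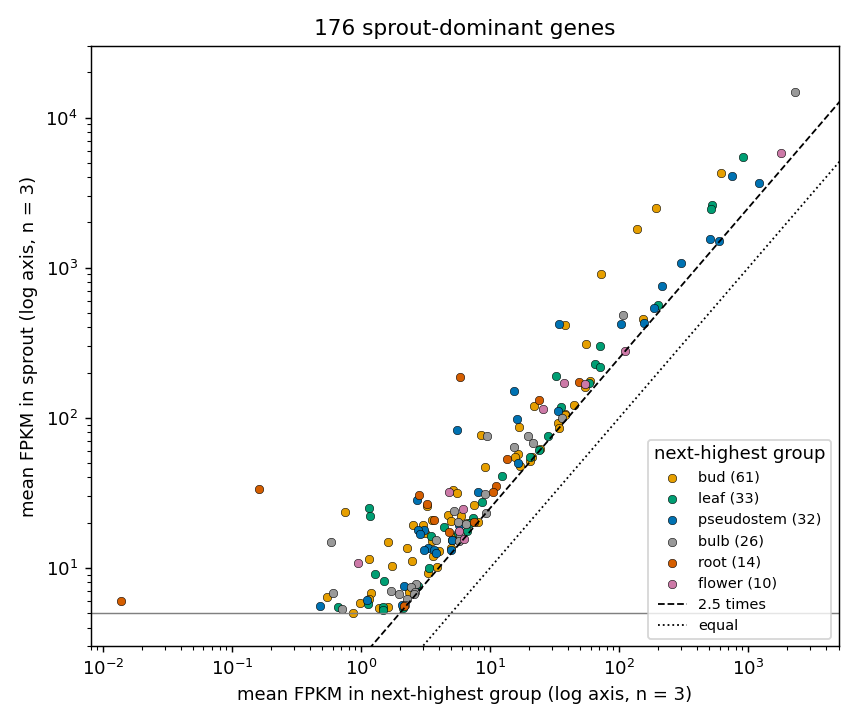
Mean FPKM of each of the 176 genes in sprout (vertical, log axis) against its mean in the next-highest group (horizontal, log axis), each over 3 libraries, coloured by that group. The dashed line is the limit of 2.5 times and the grey line the floor of 5 FPKM that chose the genes; 6 genes lie at 20 times or more.

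Together the 176 genes held 5.97%, 5.75% and 5.31% of the summed FPKM of the 3 sprout libraries. In no other library did their share exceed 0.932%, the value of pseudostem replicate 3. Group means were 0.729% ± 0.293 in pseudostem, 0.517% ± 0.039 in leaf, 0.488% ± 0.031 in flower, 0.474% ± 0.031 in bud and 0.150% ± 0.040 in root. In bulbs the mean share was 0.0726% ± 0.0112 at 192 days and 0.336% ± 0.175 at 227 days. Much of the latter was 1 gene, Asa8G03353.1. Without it the shares were 0.0658% ± 0.0130 at 192 days, 0.165% ± 0.058 at 222 days and 0.142% ± 0.023 at 227 days. In flower the share without it was 0.302% ± 0.027, and in sprout 4.36% ± 0.24. Few genes made most of the sprout's share: the single most abundant held 1.32% ± 0.12, the first 5 held 3.06% ± 0.38 and the first 20 held 4.94% ± 0.23 of summed FPKM.

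Asa8G03353.1 was the most abundant of them. Its sprout libraries read 15392, 15925 and 13400.5 FPKM. The next-highest group was the oldest bulb, at 858, 1689.6 and 4356 FPKM, followed by flower at 2289, 2376 and 1869. Every sprout library stood above every other library, and those of root were the lowest, at 0.345, 1.03 and 2.25 FPKM. Asa3G01076.1 was the second, at 7984, 5159 and 4277 FPKM in sprout and 1791, 1712 and 1869 in flower. It differed from the first in being abundant in root, at 739, 900.3 and 1892 FPKM. The lowest levels of Asa3G01076.1 were those of the youngest bulbs, 5.40, 5.69 and 22.4 FPKM.

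The 2 IDs that precede Asa8G03353.1 in number, Asa8G03351.1 and Asa8G03352.1, were also chosen. Asa8G03352.1 gave 4901, 6764 and 4597 FPKM in sprout, 877, 1075 and 785 in leaf and 546, 421 and 1036 in pseudostem. Asa8G03351.1 gave 3023, 2397 and 2424 FPKM in sprout, 674, 480.2 and 411 in leaf and 304, 293 and 344 in pseudostem. Both had their next-highest mean in leaf and were scarce in flower, at 10.7 ± 1.95 and 4.56 ± 2.15 FPKM, where Asa8G03353.1 averaged 2178 ± 271 FPKM. All 3 neighbours in ID were highest in sprout and averaged at most 1.21 ± 0.964 FPKM in root, but their levels in flower and bulb lay far apart. The genes' lengths were 522, 347 and 564 bases in the order of their IDs.

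Asa8G02749.1 had its next-highest level in bud. It gave 3584, 3956 and 5312 FPKM in sprout and 476, 703 and 659.9 FPKM in bud, and averaged 34.2 ± 10.5 FPKM in leaf. Asa4G03029.1 was also next-highest in bud and had a wider gap, at 1899, 3141 and 2391 FPKM in sprout, 291, 129 and 155 in bud and 6.10, 2.32 and 11.8 in leaf. No library outside the sprout exceeded 291 FPKM for this gene. Asa8G03730.1, the fifth in abundance, was uneven: its sprout libraries read 7156, 2216 and 2793 FPKM and its pseudostem libraries 1435, 49.6 and 760.3 FPKM. The lowest sprout library of this gene still lay above the highest pseudostem library.

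Asa5G05427.1, Asa1G00776.1 and Asa1G06534.1 were 3 abundant genes with the same length, 546 bases, and pseudostem as next-highest group. They are set together because of that length, which was noticed after their values were seen. In sprout they gave 2756, 3507 and 4769 FPKM, 1508, 1995 and 1119 FPKM and 1102, 1429 and 1967 FPKM in the same order. In pseudostem their means were 1217 ± 465, 504 ± 270.4 and 597 ± 205 FPKM. They parted in flower, where Asa5G05427.1 and Asa1G06534.1 averaged 493 ± 162 and 353 ± 91.6 FPKM and Asa1G00776.1 only 4.36 ± 3.003. All 3 were under 1 FPKM in each root library. Whether they are near-identical copies that share reads is not known, and the way reads were divided between them is uncertain.

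The 8 genes with the widest gap to the next-highest group, taken as the difference of log2(mean FPKM + 1), had sprout means from 23.4 to 2477 FPKM. Asa5G00694.1 led with a difference of 4.90, from 61.1, 25.8 and 14.2 FPKM in sprout. It had 3479 reads in the 3 sprout libraries and 22 in the 39 others together, of which 11 were in root. Asa1G06391.1 followed with 4.79 and had the steadier level, 181, 175 and 205 FPKM in sprout against 9.30, 7.46 and 0.680 in root. Asa4G01015.1 gave 30.4, 21.9 and 17.8 FPKM in sprout and 1.54, 0.142 and 0.565 in bud, and no read in any of the 36 libraries of the other 12 groups. All 36 of its reads outside the sprout were in buds.

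Other genes with wide gaps were also present in bud, leaf or pseudostem. Asa7G02072.1 gave 1545, 1703 and 2174 FPKM in sprout and 64.8, 146 and 205 in bud, with 29.5 ± 9.21 in pseudostem and 23.1 ± 6.81 in leaf. It had no read in flower and at most 0.516 FPKM in any bulb library. Asa0G05075.1 had the same order of these organs and no read in flower, but a wide spread in sprout, at 262, 1699 and 740.1 FPKM. Asa3G01462.1 gave 121, 99.3 and 28.1 FPKM in sprout and 9.41, 1.001 and 6.31 in pseudostem. Asa8G00115.1 gave 40.2, 20.2 and 14.6 FPKM in sprout, 2.36, 0.432 and 0.635 in leaf and no read in any pseudostem library. Asa0G00608.1, named after its values were seen, had 650 reads in the sprout libraries and 2 in the 39 others, but averaged only 5.98 ± 5.64 FPKM in sprout.

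**Figure D2:**
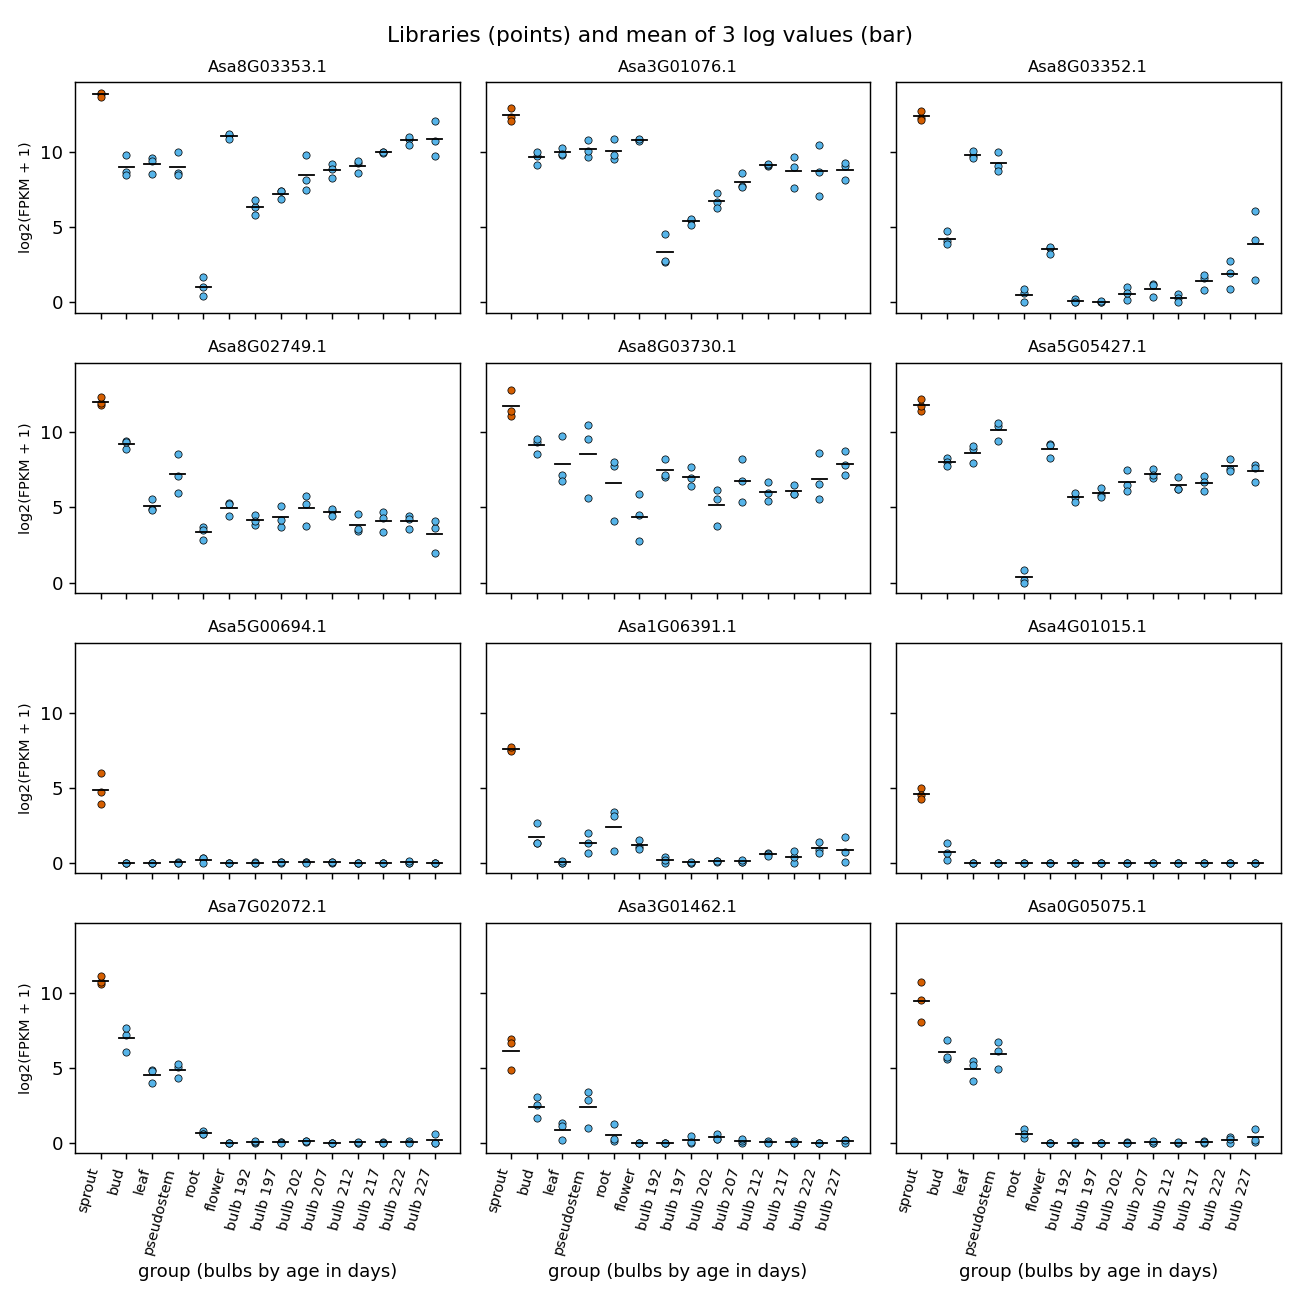
Level of 12 genes in every library as log2(FPKM + 1) (points; sprout in orange, other groups in blue; bar, mean of the 3 log values), for the 6 with the highest sprout mean and, apart from Asa4G03029.1, the 6 with the widest gap to the next-highest group. The upper 6 are present in most organs, whereas Asa5G00694.1 and Asa4G01015.1 are near 0 outside the sprout.

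The 3 sprout libraries agreed less well for these genes than for others. The coefficient of variation over the 3 libraries had a median of 33.5%, against 16.3% over all 19028 genes with a sprout mean of at least 5 FPKM. It exceeded 50% in 51 of the 176 genes (29.0%), against 7.36% of those 19028, and exceeded 100% in 11. The choice of genes used these same libraries, so this comparison is a description. Correlations between pairs of sprout libraries over the 176 genes, on log2(FPKM + 1), ran from 0.88 to 0.96. Replicate 1 was the highest of the 3 for 83 genes, replicate 2 for 59 and replicate 3 for 34. In 153 genes every sprout library lay above all 39 other libraries, and in 23 at least 1 did not.

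Some genes with wide spreads owed their sprout mean to 1 library. Asa4G02558.1, named after its values were seen, read 809.7, 59.8 and 30.4 FPKM in sprout against 84.1, 25 and 103 in leaf, so that 2 sprout libraries lay under the highest leaf library. Asa3G06625.1 read 197, 185 and 1241 FPKM in sprout, with replicate 3 the highest, and 45.9, 3.63 and 508 in pseudostem, where replicate 3 was also the highest. Asa6G00826.1 read 14.3, 62.2 and 319 FPKM in sprout and 37.4, 18.3 and 16.2 in root, so its groups overlapped. When genes were chosen on 2 sprout libraries, the library left out gives a sprout value that the choice did not use. The means of the other groups stayed those that the choice had used. Of 161 genes chosen without replicate 1, 140 (87.0%) stood above every other group's mean in replicate 1 and 111 (68.9%) by at least 2.5 times. Without replicate 2 the figures were 178 of 189 (94.2%) and 128 (67.7%), and without replicate 3 they were 191 of 200 (95.5%) and 110 (55%). The genes shared with the 176 numbered 136, 159 and 158. Median ratios to the next-highest group were 3.59, 3.11 and 2.63 in the library left out. In the libraries that chose they were 3.63, 3.56 and 3.76.

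Bud was the next-highest group for 61 genes, leaf for 33, pseudostem for 32, root for 14 and flower for 10, and 1 of the bulb ages for 26. At group level, 142 of the genes reached 1 FPKM in bud, 124 in pseudostem, 113 in leaf, 89 in flower, from 68 to 92 in the bulb ages and 68 in root. Only 4 had no read in any bud library, against 38 in root. Of the 176, 26 reached 1 FPKM in all 13 other groups and 12 in none, with a median of 7 groups. In bulbs, 64 stayed under 1 FPKM at every age.

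The genes next-highest in bud reached 1 FPKM in the fewest groups, a median of 3 others, and had a median ratio of 4.12. As 8 of the 13 other groups are ages of the bulb, such counts depend strongly on presence in bulb. They are not counts of organs. Those next-highest in leaf were present in a median of 4 groups and had a median ratio of 3.31, and those next-highest in root in 4.5 groups with 4.74. Genes next-highest in pseudostem were present in a median of 9.5 groups, those in flower in 10 and those in a bulb age in 10.5. Their median ratios were 3.60, 3.62 and 3.41. These subsets were formed from the values that chose the genes and were not tested.

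**Figure D3:**
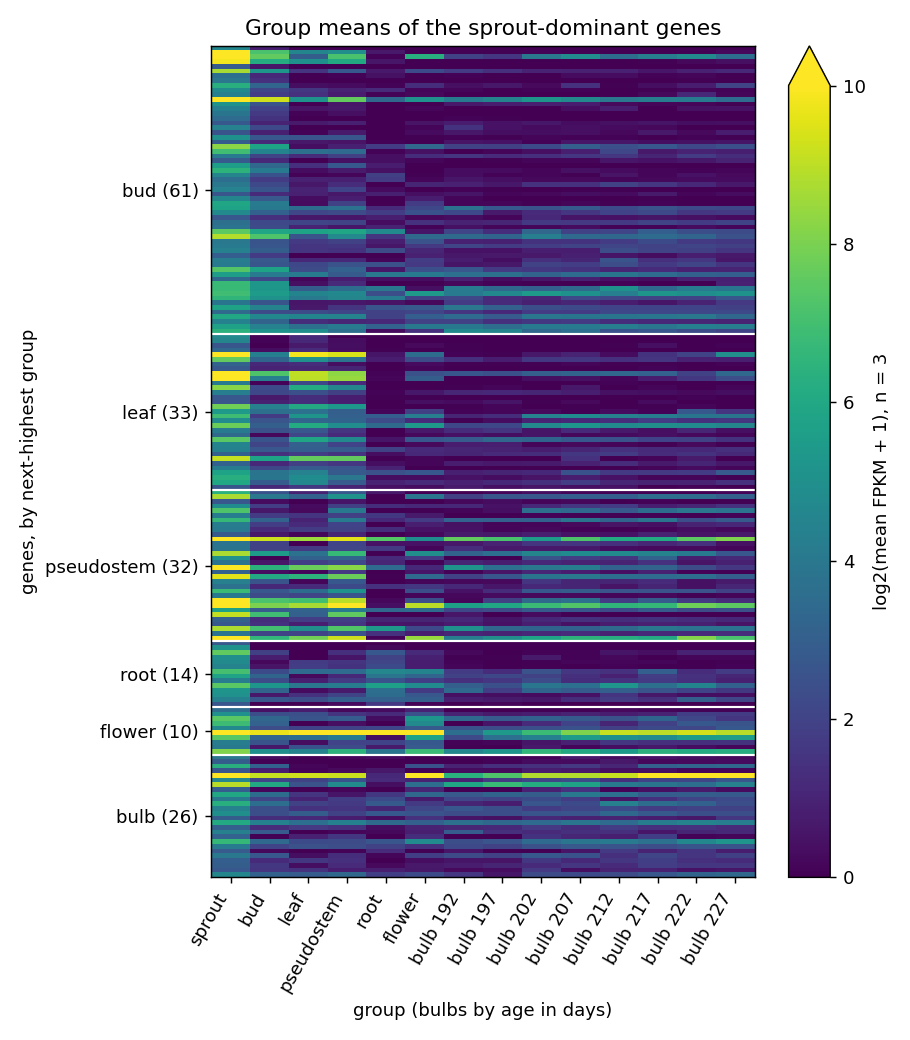
Group means of the 176 genes as log2(mean FPKM + 1) (colour, 3 libraries per group; values above 10 share the top colour), with 1 row per gene, grouped by next-highest group. Rows next-highest in bud are mostly dark outside sprout and bud, and those next-highest in flower or bulb carry signal in most groups.

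Among the genes next-highest in a bulb age, the levels differed widely. Asa2G03254.1, next-highest in 197-day bulbs, gave 677, 269 and 516 FPKM in sprout and 106, 114 and 101 FPKM at 197 days. Asa1G04033.1 was steadier in sprout, at 78.9, 77.1 and 69.7 FPKM, and read 11.1, 15.7 and 32.2 FPKM in 212-day bulbs. Neither group of libraries overlapped with sprout. Asa4G04721.1, next-highest in 222-day bulbs, gave 63.5, 67.3 and 71.1 FPKM in sprout and was even elsewhere, with every other library between 3.99 and 30.4 FPKM. It was thus among the genes present in every organ. Asa5G06143.1, the longest gene of the set at 2952 bases, read 18.4, 19.1 and 23.1 FPKM in sprout and 5.65, 6.53 and 4.58 FPKM in 192-day bulbs. Asa6G05210.1 read 94.4, 55.4 and 40.3 FPKM in sprout and 32.6, 9.59 and 3.88 FPKM in 207-day bulbs, where replicate 1 was the highest and none reached the lowest sprout library. The remaining pair were scarcer. Asa2G01657.1 read 18.4, 17.4 and 10.1 FPKM in sprout and 3.44, 5.68 and 2.27 FPKM in 202-day bulbs. Asa0G00034.1 was the lowest of those named, at 13.4, 5.68 and 4.29 FPKM in sprout and 2.38, 5.40 and 0.171 FPKM in 217-day bulbs, and its groups overlapped.

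The length of each gene could be read from the steps of the FPKM values, and the choice of genes did not use it. The 176 genes had a median length of 741 bases (quartiles 409 and 1162), against 798 (441 and 1329) for all genes with a sprout mean of at least 5 FPKM. Lengths were multiples of 3 in 92.6% of the 176 and 94.0% of the latter, so they are read as coding lengths. Of the 176, 63 (35.8%) were shorter than 500 bases, against 30.4%. The longest of the 176 had 2952 bases and the shortest 154.

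Digits at the start of the IDs were spread over the whole range, from 31 IDs that begin with Asa5G (17.6%, against 12.8% of genes with a sprout mean of at least 5 FPKM) to 10 that begin with Asa0G. IDs that begin with Asa6G made up 8.52% against 14.5%. Chosen genes with consecutive ID numbers formed 14 runs, 12 of 2 genes and 2 of 3, with 30 genes in all. Of the 352 IDs next to a chosen gene in number, 32 (9.09%) were chosen themselves. The chosen share was 0.302% of the whole table and 0.925% of the genes with a sprout mean of at least 5 FPKM. How many of the 352 reached that mean was not counted, and the shares were not tested. The files give no positions, so whether consecutive numbers mean neighbouring genes is not known. The other run of 3, Asa4G05586.1 to Asa4G05588.1, was next-highest in bud for all its members. Its sprout means were 106 ± 20.01, 20.6 ± 2.02 and 46.9 ± 3.86 FPKM, and its bud means 38.0 ± 3.74, 4.99 ± 1.17 and 9.09 ± 1.59 FPKM. Members of a run could differ in level: Asa5G05427.1 averaged 3677 ± 1017 FPKM in sprout and its neighbour Asa5G05428.1 17.9 ± 20.9 FPKM.

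How the 176 genes differed among the other groups was not fixed by the choice and was tested. Values were log2(FPKM + 1), and limma was run on every gene that reached 1 FPKM in 3 or more libraries of a fit. A gene was called when its Benjamini-Hochberg adjusted p was below 0.05 and the log2 difference was 1 or more in size. Such differences understate changes of genes near 1 FPKM. The first question was whether genes of the sprout changed in bulbs as these expanded. Of the 176 genes, 113 passed the filter in the 24 bulb libraries, so the 63 others were too low there to test. Genes that rose were more frequent among them than among all genes, and genes that fell were less so, although this difference itself was not tested. Between 192 and 227 days 24 of the 113 rose (21.2%), where 8.32% of all 30430 genes tested did, and 13 fell (11.5%), where 21.1% did. The median log2 difference was 0.11 over the 113 and -0.28 over all genes, and 0.09 with the 5 genes that had no read at 1 of the ages placed at a bound of 3 reads per library. By next-highest group, 7 of the 17 tested genes of leaf rose, 5 of 8 of flower, 5 of 26 of pseudostem, 5 of 23 of bulb, 1 of 7 of root and 1 of 32 of bud. Next-highest groups were set with these same bulb values among others, so this split is a description and was not tested.

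Asa3G01076.1 rose the most in bulbs. Its libraries read 5.40, 5.69 and 22.4 FPKM at 192 days, 104, 155 and 77.7 at 202 days, 537, 564 and 603 at 212 days and 537, 279 and 621 at 227 days, on the log2 scale a difference of 5.50 ± 0.65 (SE, limma, adjusted p = 1.09e-06) between the ends. Its level climbed until 212 days and then scattered, from 137 to 1445 FPKM at 222 days. Asa8G03353.1 climbed throughout: its libraries read 81.1, 112 and 54.4 FPKM at 192 days, 631, 689.7 and 388 at 212 days, 1880.4, 2079 and 1424 at 222 days and 858, 1689.6 and 4356 at 227 days, a difference of 4.53 ± 0.51 (SE, limma, adjusted p = 5.93e-07). Even the highest of these bulb libraries lay well under the lowest sprout library. Its neighbour in ID Asa8G03352.1 was near 0 at 192 days and read 1.80, 68.3 and 16.8 FPKM at 227 days, a difference of 3.84 ± 0.71 (SE, limma, adjusted p = 1.63e-04). Asa8G03351.1, at 5.45 ± 2.36 and 9.41 ± 8.69 FPKM, differed by 0.40 ± 0.65 (SE, limma, adjusted p = 0.636) and was not called. The difference between the neighbours was not tested.

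Asa5G03599.1 and Asa3G01578.1 fell the most. Asa5G03599.1 read 24.5, 34.5 and 45.3 FPKM at 192 days and 2.06, 0.0287 and 3.86 FPKM at 227 days, on the log2 scale a difference of -3.81 ± 0.61 (SE, limma, adjusted p = 3.43e-05). Its sprout libraries read 1048, 915 and 1237 FPKM. Asa3G01578.1 read 27.6, 25.2 and 24.8 FPKM at 192 days and 1.33, 4.21 and 3.93 FPKM at 227 days, a difference of -2.78 ± 0.40 (SE, limma, adjusted p = 1.04e-05). The groups did not overlap for either gene. In 23 of the 24 genes that rose and in all 13 that fell, the libraries of the 2 ages did not overlap. The same share among all called genes was not counted, so this describes the called genes and is no trait particular to them.

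With age as a linear term over the 35 days, which uses the same bulbs, 26 of the 113 genes rose (23.0%), where 9.6% of all genes did, and 10 fell (8.85%), where 18.8% did. Asa3G01076.1 and Asa8G03353.1 had the steepest rises, 5.21 ± 0.72 (SE, limma, adjusted p = 1.14e-06) and 4.54 ± 0.38 (SE, limma, adjusted p = 6.34e-10). Asa2G03254.1 and Asa5G03599.1 had the steepest falls, -3.27 ± 0.51 (SE, limma, adjusted p = 7.29e-06) and -3.16 ± 0.51 (SE, limma, adjusted p = 1.13e-05). Asa2G03254.1 was highest at 197 days, at 106, 114 and 101 FPKM, and read 3.29, 24.6 and 6.14 FPKM at 222 days. The balance depended on scaling. Median-of-ratios scaling raised the median difference of all genes by 0.29 between 192 and 227 days and by 0.24 for the trend. It gave 27 risen and 10 fallen genes of the 113 between the ages, where 13.1% and 13.7% of all genes were called, and 37 and 8 for the trend, where 13.6% and 13.5% were. Replicate 2 of the 227-day bulbs had 72 of the 176 genes at 1 FPKM or more, against 87 and 92 in the others of its age, and without it 28 genes rose (24.8%, where 10.1% of all genes did) and 13 fell (11.5%, where 17.9% did).

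**Figure D4:**
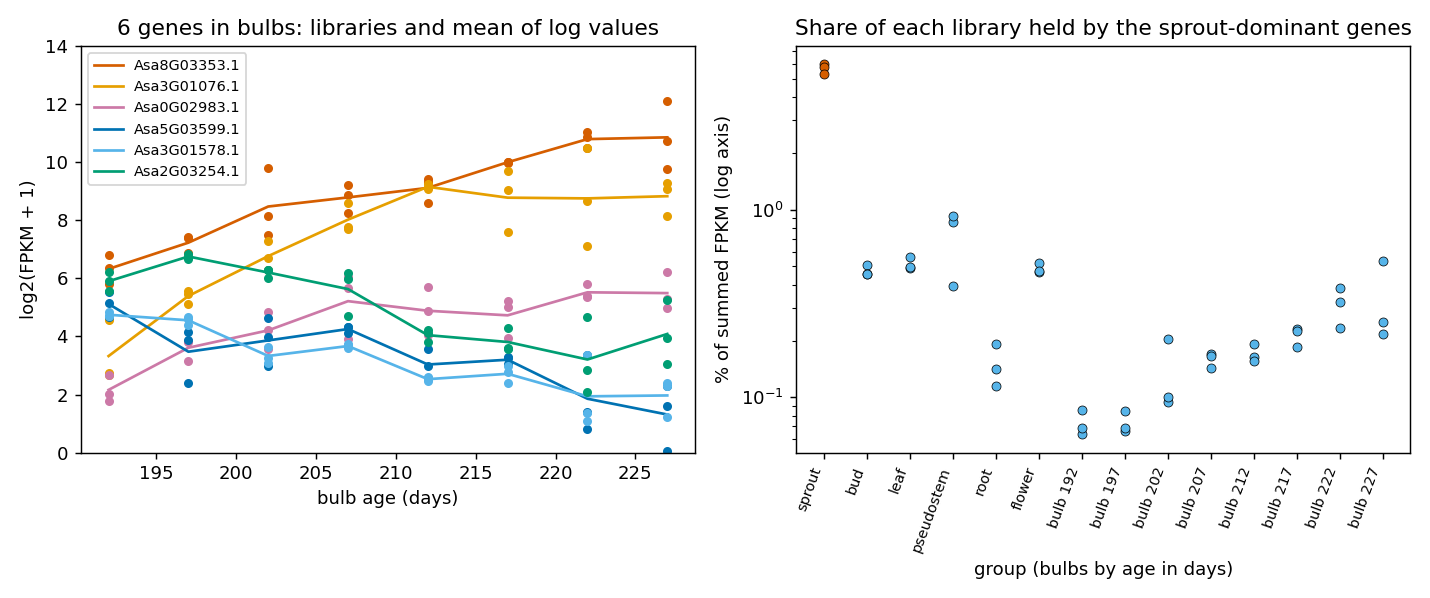
Left, 6 of the genes along bulb age in days as log2(FPKM + 1) (points, libraries; lines, mean of the 3 log values): Asa8G03353.1, Asa3G01076.1 and Asa0G02983.1 climb, and Asa5G03599.1, Asa3G01578.1 and Asa2G03254.1 decline. Right, share of summed FPKM held by all 176 genes in each library (log axis), between 5.31% and 5.97% in sprout and at most 0.932% elsewhere.

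The other comparisons used the 21 libraries of 7 tissues, with 212-day bulbs as bulb, in 3 pairs that share no library. Sprout was 1 of those 7, so its libraries entered the estimate of the spread. All 176 genes passed the filter there. It is met by the sprout libraries alone, so genes near 0 in both tissues of a pair were tested too, and the shares of all genes are given beside theirs as a background only. Flower and bud gave the most calls of the 3 pairs. Most were genes lower in flower. Of the 176 genes, 78 were lower in flower than in bud (44.3%), where 25.7% of all 33536 genes tested were, and 14 were higher (7.95%), where 8.52% were. The median log2 difference was -0.88 over the 176 and -0.48 over all genes, and -0.87 with the 20 genes that had no read in 1 of the 2 tissues at their bound. Median-of-ratios scaling raised the median of all genes by 0.43 and left 62 lower (35.2%, where 13.9% of all genes were) and 16 higher (9.09%, where 12.9% were).

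Asa7G02072.1 showed the widest gap. Its bud libraries read 64.8, 146 and 205 FPKM and no flower library had a read, a level at least 1629-fold lower at a floor of 3 reads per library (limma, adjusted p = 7.75e-12). Asa3G06625.1 read 52.2, 167 and 141 FPKM in bud and 0, 0 and 0.0428 in flower, on the log2 scale a difference of -6.74 ± 1.16 (SE, limma, adjusted p = 8.60e-05). The run Asa4G05586.1 to Asa4G05588.1 was lower in flower for all its members, at differences of -5.24 ± 0.23 (SE, limma, adjusted p = 5.18e-12), -2.56 ± 0.37 (SE, limma, adjusted p = 1.30e-05) and -3.32 ± 0.30 (SE, limma, adjusted p = 4.66e-08). Of the 78 lower genes, 44 were next-highest in bud, 14 in leaf and 13 in pseudostem; next-highest groups were set with these same bud and flower values. The tissues did not overlap for any of the 78, but the same share among all genes called lower was not counted.

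Asa0G03631.1 and Asa0G02983.1 were higher in flower by the most. Asa0G03631.1 read 15.9, 18.4 and 20.1 FPKM in flower and 3.17, 2.15 and 1.87 in bud, on the log2 scale a difference of 2.51 ± 0.44 (SE, limma, adjusted p = 8.95e-05). Its level in sprout was 144, 113 and 94.2 FPKM. All flower libraries lay between those of bud and sprout. Asa0G02983.1 read 31.0, 78.6 and 52.5 FPKM in flower and 11.5, 5.71 and 9.69 in bud, a difference of 2.42 ± 0.45 (SE, limma, adjusted p = 1.68e-04). This gene also rose in bulbs, from 3.63 ± 1.54 FPKM at 192 days to 47.3 ± 23.2 at 227 days, a difference of 3.33 ± 0.52 (SE, limma, adjusted p = 2.47e-05). Asa8G03353.1 was higher in flower as well, by 2.09 ± 0.41 (SE, limma, adjusted p = 3.12e-04). This call was lost with a replicate block, where the bud level rested on bud replicate 1 alone. Buds and flowers also differ in labelled age, so tissue and age cannot be told apart.

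Leaf and pseudostem gave the fewest calls of the 3 pairs. How their shares compared with those of all genes changed with single pseudostem libraries and with scaling. Higher in leaf were 9 of the 176 (5.11%, where 6.22% of all genes were) and lower in leaf were 19 (10.8%, where 9.07% were). The median log2 difference was -0.12, against -0.15 over all genes, and -0.03 with the 14 genes that had no read in 1 of the tissues at their bound. Asa4G03029.1 differed the most, at 6.10, 2.32 and 11.8 FPKM against 62.7, 197 and 157 in pseudostem, a difference of -4.23 ± 0.46 (SE, limma, adjusted p = 3.06e-06). Asa1G00705.1 read 0.590, 0 and 0 FPKM in leaf and 28.7, 3.43 and 13.7 in pseudostem, a difference of -3.42 ± 0.51 (SE, limma, adjusted p = 8.43e-05). Leaf and pseudostem libraries did not overlap for either gene. Asa0G03631.1 was higher in leaf, at 42.7, 29.5 and 34.0 FPKM against 8.37, 3.60 and 10.2, a difference of 2.20 ± 0.44 (SE, limma, adjusted p = 0.00108). So was Asa2G02164.1, at 20.1, 30.7 and 20.2 FPKM against 7.09, 7.99 and 3.93, a difference of 1.77 ± 0.43 (SE, limma, adjusted p = 0.00486). Pseudostem replicate 2 stood apart for these genes: they held 0.392% of its summed FPKM, against 0.862% and 0.932% in replicates 1 and 3. Without it 5 genes were higher in leaf (2.84%, where 5.74% of all genes were) and 32 lower (18.2%, where 8.70% were). Without replicate 1, 13 were higher (7.39%, where 6.32% were) and 18 lower (10.2%, where 8.51% were). Without replicate 3, 11 were higher (6.25%, where 5.94% were) and 16 lower (9.09%, where 8.74% were). Median-of-ratios scaling gave 12 higher (6.82%, where 7.64% were) and 19 lower (10.8%, where 6.86% were).

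Root and 212-day bulbs formed the last pair. Of the 176 genes, 37 had no read in 1 of these tissues and 10 in neither, so their shares cannot be read against those of all genes. Lower in root were 41 of the 176 genes (23.3%, where 22.9% of all genes were), and higher in root were 19 (10.8%, where 16.6% were). The median log2 difference was -0.11, against -0.24 over all genes, and -0.02 with those 37 genes at their bound. Median-of-ratios scaling raised the median of all genes by 0.22 and gave 36 lower (20.5%, where 17.4% of all genes were) and 24 higher (13.6%, where 20.5% were). With a pseudocount of 0.1, 29 were higher (16.5%, where 18.7% were). Asa8G03353.1 and Asa5G05427.1 were lower in root by the most. Asa8G03353.1 read 0.345, 1.03 and 2.25 FPKM in root and 631, 689.7 and 388 in bulb, a difference of -8.06 ± 0.41 (SE, limma, adjusted p = 2.11e-11). Asa5G05427.1 read 0.119, 0.825 and 0 FPKM in root and 74.9, 129.6 and 75.1 in bulb, a difference of -6.16 ± 0.36 (SE, limma, adjusted p = 1.36e-10). Asa6G00826.1 and Asa1G02954.1, both next-highest in root, were higher there. The former read 37.4, 18.3 and 16.2 FPKM in root and 2.28, 2.10 and 0.637 in bulb, a difference of 3.19 ± 0.68 (SE, limma, adjusted p = 5.39e-04). The latter read 15.6, 5.49 and 19.1 FPKM in root and 0, 1.39 and 1.32 in bulb, a difference of 2.87 ± 0.40 (SE, limma, adjusted p = 6.01e-06).

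**Figure D5:**
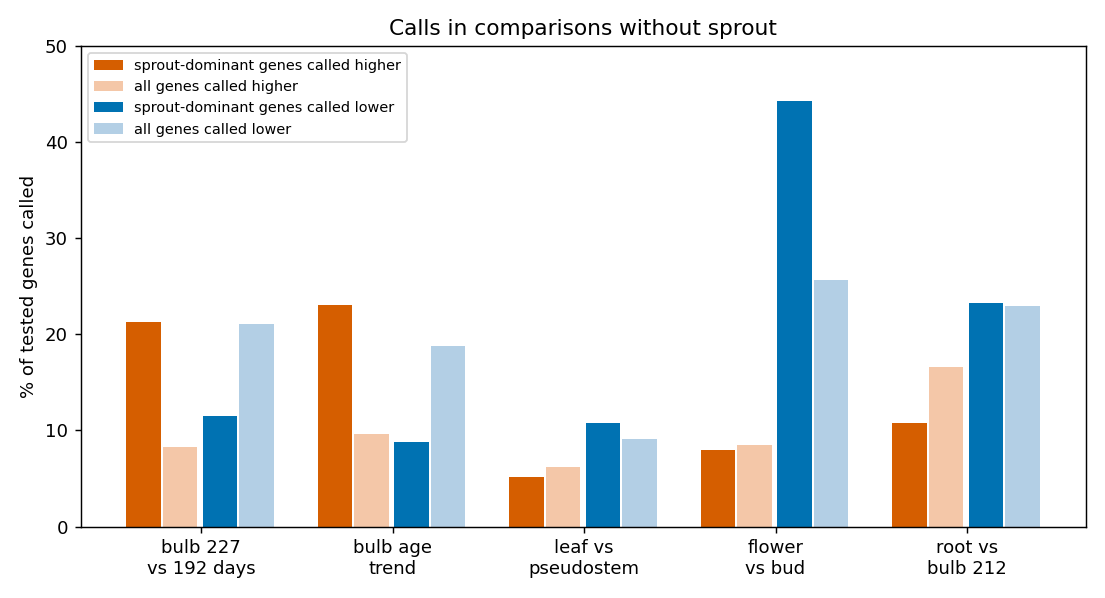
Share of tested genes called higher or lower in the first-named group of 5 comparisons between groups other than the sprout. Bars start at 0, dark for the sprout-dominant genes that passed the filter and pale for all genes tested. In the 3 tissue pairs the sprout libraries entered the filter and the estimate of the spread. The share for these genes lies above that for all genes for rises in bulbs (21.2% against 8.32%). It also does for lower levels in flower than in bud (44.3% against 25.7%). There the filter is met by the sprout libraries alone, so the share of all genes is a background only. Neither difference in shares was tested. For leaf against pseudostem the comparison with all genes changes with the pseudostem libraries used. Without pseudostem replicate 2, 18.2% against 8.70% were lower in leaf, and without replicate 1, 10.2% against 8.51% were.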

How the data were processed

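The authors deposited 1 table of FPKM for 58219 gene IDs in 42 libraries. Per the submitters' processing notes, Bowtie2 and RSEM were used; no version, genome or gene model is given in the sources used here. Columns were matched to samples by title.

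Each gene's FPKM values were whole multiples of 1 step, within 0.001 reads, for all 45750 genes above 0. The steps gave reads, used for depth, low values and 1 alternative fit, and whole-base gene lengths. The treatment of reads that match more than 1 gene is not known.

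Group means and the choice of genes were computed with Python 3.11.15, pandas 2.3.3 and NumPy 2.4.6. Tests used limma 3.58.1 in R 4.3.3 on log2(FPKM + 1), with a variance trend and Benjamini-Hochberg adjustment over all genes tested, in a fit of 24 bulb libraries and one of 21 libraries of 7 tissues. The procedures were tested on simulated data. The genes and comparisons were chosen with earlier results of these data known.

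Named genes were the 8 with the highest sprout mean, the 8 with the widest gap to the next-highest group, the most abundant for each next-highest group, the 2 risen and 2 fallen by the most in each of the 5 tests among those whose higher group averaged 5 FPKM or more, and 4 genes at the limit of 2.5; others were named after their values were seen. Lists by function and tissue markers could not be applied without gene names. Alternatives were a pseudocount of 0.1, no filter, median-of-ratios scaling, TPM, voom on reads, a replicate block, other limits for the choice and leaving out each library.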

Additional observations from a re-analysis of the deposited data

How the results depend on the processing

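The number of genes chosen followed the limits: 279 at 2 times and 80 at 4 times. It was from 141 to 212 with the other floors, scalings and group medians, and from 161 to 200 without 1 sprout library. TPM kept 165 of the 176 genes, median-of-ratios scaling 129 and group medians 134. A pseudocount of 0.1 gave 29 genes higher in root than in bulb (16.5%, where 18.7% of all genes were), against 19. Replicate numbers gave no sign of pairing the samples. Correlations of the deviations of same-numbered libraries were between -0.15 and 0.16 and not all above 0.1, and buds shared only number 1 with the others. With 3 libraries per group, such values cannot exclude a pairing. With the number as a replicate block, 7 genes in place of 14 were higher in flower than in bud (3.98%, where 7.08% of all genes were), Asa8G03353.1 among those lost (limma, adjusted p = 0.114), and no other count moved by more than 1.5 times. Numbers 4 and 7 occur only in buds, so in that fit the bud level rested on bud replicate 1 alone. Its counts for flower and bud are therefore not like those of the main fit. When each library of the groups compared was left out in turn, genes risen from 192 to 227 days numbered 22 to 28 and fallen ones 11 to 16. The shares of all genes moved as well in these refits, from 7.06% to 10.1% risen and from 17.9% to 24.5% fallen. For the age trend the ranges were 23 to 30 and 9 to 11, for flower above and below bud 13 to 14 and 73 to 79, for root above and below bulb 18 to 21 and 35 to 42, and for leaf above and below pseudostem 5 to 13 and 16 to 32, where replicate 2 of the pseudostems decided the ends at 5 and 32. The shares of all genes ran from 8.79% to 11.5% and from 17.3% to 19.5% for the age trend. For flower and bud they were 8.16% to 8.48% and 24.4% to 26.3%. For root and bulb they were 15.1% to 16.8% and 21.998% to 24.7%. For leaf and pseudostem they were 5.71% to 6.32% and 7.48% to 9.8%. The 20 gene results named for the largest differences, 2 in each direction of each test, kept their direction and their side of the threshold in all 312 refits. They were picked for their size, and other calls were less stable. Genes with few reads in a group are limited by depth, most of all in leaves.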
